A study of Mus musculus with 10 samples.

Results

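The adipocyte genes are 10 genes that mark fat cells or carry out their lipid chemistry: Adipoq, Plin1, Fabp4, Cfd, Lep, Pck1, Thrsp, Lpl, Cidec and Pparg. They were taken by symbol from the annotation of a whole-transcript array, with the probe set of highest mean where a gene had several, out of 19938 genes named in this way. A probe set with a symbol of its own was listed for 9 of the 10, and each of the 9 had 1 such probe set. Cfd (complement factor D, or adipsin) had none and is not analysed here. Lep had a mean below the limit set on low values, 6.55 log2 units, so 8 of the 9 were among the 14953 genes tested. Prostates came from 10 male TRAMP mice, a tumour model in which the probasin promoter drives SV40 T antigen in prostate epithelium. Tap water alone was given to 5 of the mice, and the other 5 received nicotine tartrate in it, at 250 µg/ml, beginning when they were 8 to 9 weeks old. All 10 carried the transgene. Each mouse gave 1 array, and the number of arrays limits the precision.

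White fat cells store triglyceride in 1 large droplet, coated by perilipin 1, and release hormones such as adiponectin and leptin. Pparg encodes the nuclear receptor that, with C/EBP factors, turns precursors into fat cells and keeps their genes active. Brown and beige fat cells hold many small droplets and burn lipid for heat through the uncoupling protein Ucp1. The prostate is an epithelial and smooth muscle organ that lies in pelvic fat. Several of the 10 genes are not restricted to fat: Fabp4 is also made by capillary endothelium and macrophages, Lpl by macrophages and muscle, and Pparg by epithelia such as urothelium.

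Across the series, the arrays of nicotine mice 3 and 1 stood apart, with median correlations of 0.654 and 0.88 with the other arrays, while the other 8 correlated with each other at 0.98 to 0.993. The mean of 9 prostate luminal secretory markers was 6.92 (nicotine 3) and 10.42 (nicotine 1) on the log2 scale, and 11.40 to 11.68 for the other 8 mice. Nicotine 3 therefore had low values of the labelled tissue's own markers. Neuroendocrine markers averaged 10.04 and 9.63 in these mice, and 6.70 to 7.39 in the others. The differences between the groups in the members and in the fat lists are also given without them.

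Adipocyte genes separated 1 prostate from the others and did not separate the groups. In nicotine mouse 4, 8 of the 9 measured genes had their highest value of all 10 mice, where the same mouse was highest in 5.78% of all 19938 genes. The members were chosen with earlier results of these data known, so this contrast is a description. No other mouse was highest in more than 1 of the 9. For nicotine 4 the mean over the 9 genes was 8.27 log2 units, while no other mouse exceeded 7.50 and the lowest had 7.04. Between nicotine and water, 0 of the 8 tested members passed an adjusted p of 0.05 by limma, as did 0% of all 14953 genes. A difference in the number of fat cells and a difference in RNA per fat cell cannot be told apart in whole tissue.

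The hormone genes were Adipoq and Lep. Adipoq encodes adiponectin, a hormone made almost only by fat cells. Its values were 6.50, 6.77, 6.76, 6.66 and 6.61 log2 units in water mice 1 to 5 and 6.43, 6.60, 6.64, 7.82 and 6.55 in nicotine mice 1 to 5. Nicotine 4 lay 1.05 log2 units above the next mouse, while the other 9 spanned 0.34. On a linear scale, nicotine 4 was 2.31-fold above the median of the others. Lep encodes leptin, the hormone that reports fat stores to the brain. It had values of 5.91, 6.17, 6.17, 5.90 and 6.42 in the water group and 6.05, 6.13, 5.95, 6.53 and 5.88 in the nicotine group. Nicotine 4 was again highest, but by 0.11 over water 5, and the groups overlapped.

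The genes of the lipid droplet were Plin1, whose protein coats the droplet and gates lipolysis, and Cidec, whose protein fuses droplets into larger ones. Plin1 measured 7.0, 7.47, 7.15, 7.33 and 7.33 log2 units in water mice 1 to 5 and 7.34, 7.41, 7.12, 7.84 and 7.30 in nicotine mice 1 to 5. For Cidec the values were 7.59, 8.01, 8.00, 7.97 and 8.08 with water and 7.98, 7.77, 7.18, 8.75 and 7.85 with nicotine. Nicotine 4 was above the next mouse by 0.37 for Plin1 and by 0.67 for Cidec. Nicotine 3 was the lowest mouse for Cidec, and water 1 the lowest for Plin1.

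Fatty acid handling was covered by Fabp4, the fatty acid carrier of the fat cell cytoplasm, and Lpl, the lipase that frees fatty acids from lipoproteins at the capillary wall. Fabp4 had the widest separation of the 9: it measured 8.18, 8.36, 8.55, 8.17 and 8.27 log2 units in the water group and 8.57, 8.06, 7.39, 10.19 and 8.18 in the nicotine group. Nicotine 4 was 4.01-fold above the median of the other mice and 3.06-fold above the next. The lowest value of Fabp4 was that of nicotine 3, in the same treatment group. Lpl measured 9.08, 8.70, 8.79, 8.70 and 8.63 with water and 8.73, 8.64, 7.86, 9.24 and 8.83 with nicotine. Nicotine 4 exceeded water 1 by 0.16 only, and nicotine 3 was the lowest by far. Water 1, next to the top for Lpl, also had the highest mean of 12 macrophage markers (9.15, against 7.93 to 8.95 in the other 9 mice); the part of macrophages in its Lpl value was not tested.

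Pck1 encodes the cytosolic enzyme that makes the glycerol backbone for triglyceride in fat cells and drives glucose production in liver. Its values were 7.0, 7.20, 7.19, 7.12 and 7.07 log2 units in water mice 1 to 5 and 7.30, 7.36, 7.11, 7.94 and 7.31 in nicotine mice 1 to 5. Apart from nicotine 3, the nicotine mice all lay above the highest water mouse. Thrsp, which encodes a nuclear protein that promotes fatty acid synthesis, measured 6.12, 6.48, 6.44, 6.36 and 6.52 in the water group and 6.87, 6.54, 6.94, 7.69 and 6.35 in the nicotine group. Nicotine 4 was highest, and nicotine 3 and 1 came next; nicotine 2 was level with the top of the water group. In these 2 mice the fatty acid elongase gene Elovl6 was also high, at 10.50 and 9.27, against 7.46 to 7.94 in the other 8.

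Pparg did not follow the other members. It measured 8.28, 8.31, 8.42, 8.47 and 8.60 log2 units in water mice 1 to 5 and 7.80, 8.36, 7.14, 8.44 and 8.49 in nicotine mice 1 to 5. Nicotine 4 was within the range of the water group, and the low values were those of nicotine 3 and 1, the mice with low luminal markers. Urothelial markers, another epithelial source of Pparg, averaged 6.96 in nicotine 3 and 8.74 to 8.92 in the other 9 mice. Of the 6 markers, 4 were lowest in nicotine 3, while Upk3a (7.13) and Krt20 (5.81) lay inside the range of the others. In nicotine 1 the list mean was 8.78, but its markers differed in direction. Upk1b was 10.84 there, against 11.62 to 11.98 in the mice other than nicotine 3, and Krt20, at 7.69, was highest there. The part of epithelium in the Pparg values was not tested.

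**Figure D1:**
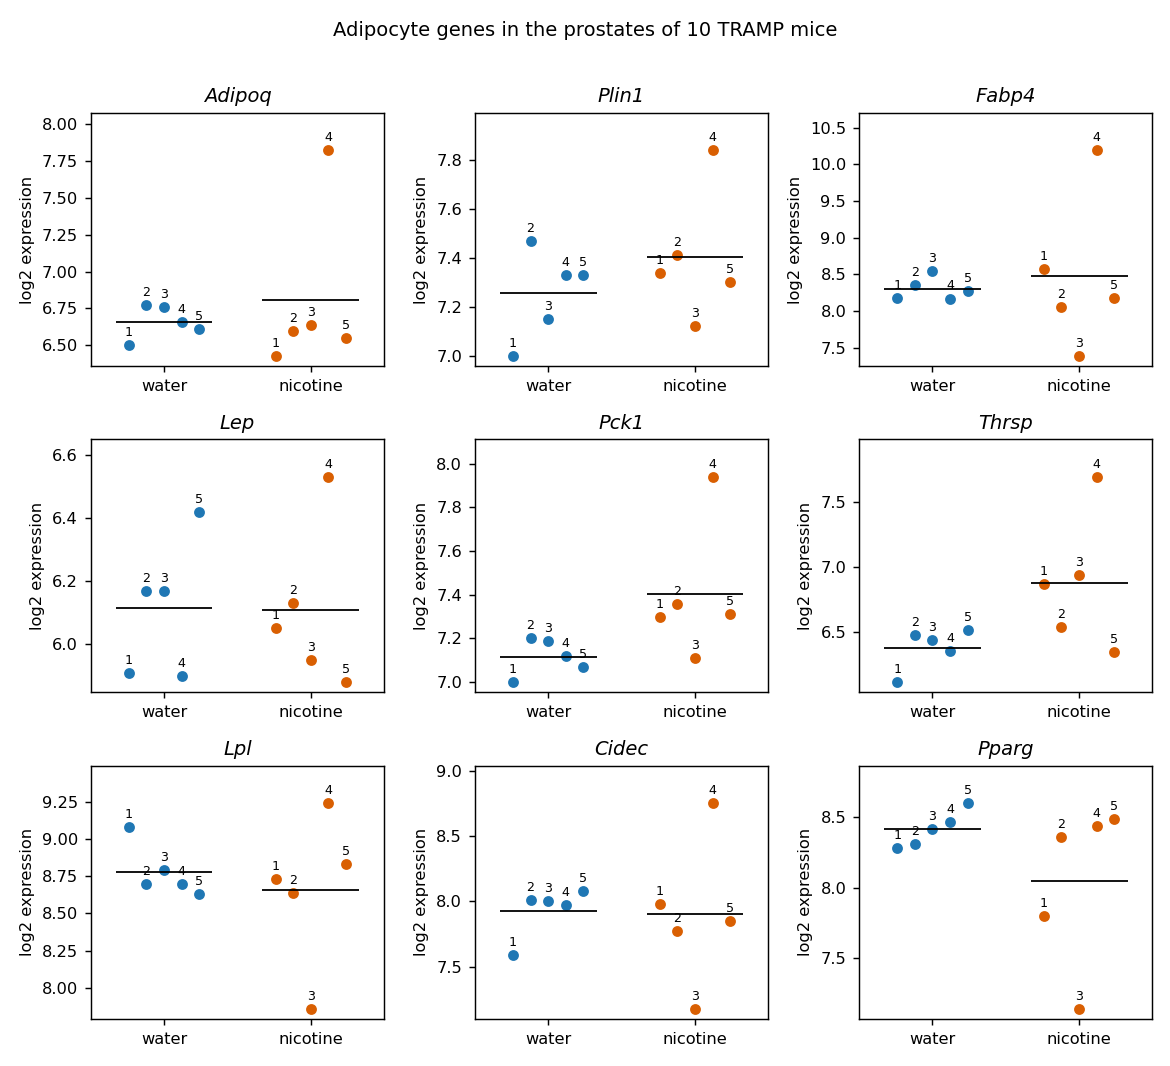
Log2 expression of the 9 measured adipocyte genes in each mouse (points, labelled with the mouse number), with water in blue and nicotine in orange and the group mean as a line; each panel has its own axis, and axes do not start at 0. Nicotine 4 is the highest point in 8 panels and lies inside the water range for Pparg.

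The windows around the transcription starts of the members were searched for the letters that fat cell regulators bind, because 8 of the 9 measured genes had the same highest mouse. RefSeq promoters of build GRCm38.p6, 250 bases before to 50 after the start, were listed for 8 of the 10 members, with 11 windows in all, and not for Fabp4 and Lpl. The relaxed C/EBP motif TTGCNNAA, searched on both strands, was in 4 of the 11 windows (of Lep, Cidec, Plin1 and Pparg) and in 10.8% of all 32851 promoters. Its full palindrome TTGCGCAA, which the relaxed motif contains, was in the Lep window alone and in 0.183% of all promoters. The cAMP response element TTACGTCA was in the Pck1 window alone and in 0.499% of all. The nuclear receptor hexamer AGGTCA was in 2 windows, both of Pparg, and in 16.3% of all, and its direct repeat with 1 base between, the form bound by the PPAR and RXR pair, was in 0 of the 11 and 0.0396% of all. The TATA letters TATAA were in windows of Lep and Pparg and in 24.9% of all. The windows of Adipoq, Cfd and Thrsp held none of these letters. These motifs were chosen with matches in view, and a match is a description of letters, not of binding.

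The windows of 4 members are shown, 5′ to 3′ on the gene's strand, with the C/EBP motif (Lep, Plin1, Cidec) or the cAMP response element (Pck1) in capitals. Counted from the start, where -1 is the base before it, the match of Lep begins at -55, those of Plin1 at -187 and -58, that of Cidec at -198 and that of Pck1 at -93. They lie at chr6:29059971-29060270 on the plus strand (Lep), chr7:79732727-79733026 on the minus strand (Plin1), chr6:113434715-113435014 on the minus strand (Cidec) and chr2:173152823-173153122 on the plus strand (Pck1).
Lep: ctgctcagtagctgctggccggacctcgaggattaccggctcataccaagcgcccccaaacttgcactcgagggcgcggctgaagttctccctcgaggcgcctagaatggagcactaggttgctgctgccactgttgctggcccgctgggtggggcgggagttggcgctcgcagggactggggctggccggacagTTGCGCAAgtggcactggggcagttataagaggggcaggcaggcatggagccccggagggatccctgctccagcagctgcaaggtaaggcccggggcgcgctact
Plin1: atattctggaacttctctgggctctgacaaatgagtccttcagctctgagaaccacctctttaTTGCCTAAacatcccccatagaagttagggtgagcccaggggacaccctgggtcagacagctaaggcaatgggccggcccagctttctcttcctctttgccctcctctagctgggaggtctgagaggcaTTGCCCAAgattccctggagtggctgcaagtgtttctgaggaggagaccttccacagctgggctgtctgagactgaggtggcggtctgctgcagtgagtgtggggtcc
Cidec: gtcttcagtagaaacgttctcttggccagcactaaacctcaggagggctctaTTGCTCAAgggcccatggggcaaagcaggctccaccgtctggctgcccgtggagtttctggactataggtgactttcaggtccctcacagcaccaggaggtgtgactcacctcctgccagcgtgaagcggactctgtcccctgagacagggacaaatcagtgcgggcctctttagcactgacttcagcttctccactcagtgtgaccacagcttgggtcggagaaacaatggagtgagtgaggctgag
Pck1: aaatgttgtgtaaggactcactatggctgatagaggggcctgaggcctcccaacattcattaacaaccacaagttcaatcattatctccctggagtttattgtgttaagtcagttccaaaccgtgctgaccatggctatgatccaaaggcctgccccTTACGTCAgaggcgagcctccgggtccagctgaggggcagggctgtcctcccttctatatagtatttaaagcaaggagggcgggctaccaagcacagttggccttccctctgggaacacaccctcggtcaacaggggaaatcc

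The design sets nicotine against water, and the series title names an immune and inflammation signature in prostate tumours of smokers. For the adipocyte genes the groups overlapped in all 9 members, where 4.9% of all tested genes had groups that did not overlap. At an unadjusted p under 0.05 there were 0 of 8 tested members, against 10.1% of all tested genes. The differences of largest size were those of Thrsp, Pparg and Pck1. Thrsp was tested, but its water values, 6.12 to 6.52, all lay below the limit of 6.55 set on low values. Its median over the mice other than nicotine 4, 6.48, was below that limit too. Thrsp was 6.38 ± 0.16 (SD, n = 5) with water and 6.88 ± 0.52 (SD, n = 5) with nicotine, Pparg 8.42 ± 0.13 and 8.05 ± 0.58, and Pck1 7.12 ± 0.08 and 7.40 ± 0.32. Thrsp had a log2 difference (nicotine minus water) of 0.49 ± 0.22 (SE), with a 95% interval of -0.0046 to 0.99 and a limma adjusted p of 0.458. For Pck1 it was 0.28 ± 0.14 (SE), with an interval of -0.03 to 0.60 and the same adjusted p. Pparg differed by -0.37 ± 0.24 (SE), with an interval of -0.91 to 0.18 and a limma adjusted p of 0.469.

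The remaining members had means closer together. Adipoq was 6.66 ± 0.11 (SD, n = 5) with water and 6.81 ± 0.57 (SD, n = 5) with nicotine, Fabp4 8.31 ± 0.15 and 8.48 ± 1.05, and Cidec 7.93 ± 0.19 and 7.91 ± 0.56. The interval of the log2 difference was -0.38 to 0.69 for Adipoq, -0.79 to 1.13 for Fabp4 and -0.57 to 0.52 for Cidec. It was -0.16 to 0.46 for Plin1 and -0.61 to 0.37 for Lpl, and -0.32 to 0.31 for Lep in the fit over all 19938 genes. These intervals hold differences of either sign, so the groups were not shown to be alike. Over the 9 members, 5 differences were positive and 4 negative, with a median of 0.15, beside a median of 0.00 over all tested genes.

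Without nicotine 4 the differences of Adipoq (-0.10 ± 0.08 SE) and Fabp4 (-0.26 ± 0.21) turned negative, so that 3 of the 9 members were positive in place of 5. Cidec and Lep, near 0 and negative with all 10 mice, were -0.24 ± 0.17 and -0.11 ± 0.12. Plin1 (0.04 ± 0.11), Thrsp (0.29 ± 0.14) and Pck1 (0.15 ± 0.08) were smaller and still positive. Thrsp was 0.06 without nicotine 1, 3 and 4, the mice with its 3 highest values. The mean over the 9 genes differed by 0.08 in all 10 mice, by -0.11 without nicotine 4 and by 0.27 without nicotine 1 and 3. Without nicotine 1, 3 and 4 it differed by -0.02. Leaving out nicotine 1 and 3, which had low luminal markers, gave 0.02 ± 0.08 (SE) for Pparg and 0.12 ± 0.14 for Lpl, against -0.37 and -0.12 with them. It gave 0.33 ± 0.24 for Adipoq, 0.07 ± 0.15 for Lep, 0.26 ± 0.13 for Plin1, 0.19 ± 0.20 for Cidec and 0.50 ± 0.39 for Fabp4. Pck1 was then 0.42 ± 0.13 and Thrsp 0.48 ± 0.25, and the smallest limma adjusted p of the 9 was that of Pck1, 0.176. The spread within the nicotine group was wider than within the water group for each of the 9 members. For Adipoq the SD of the nicotine group was 0.57 with nicotine 4 and 0.09 without it.

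**Figure D2:**
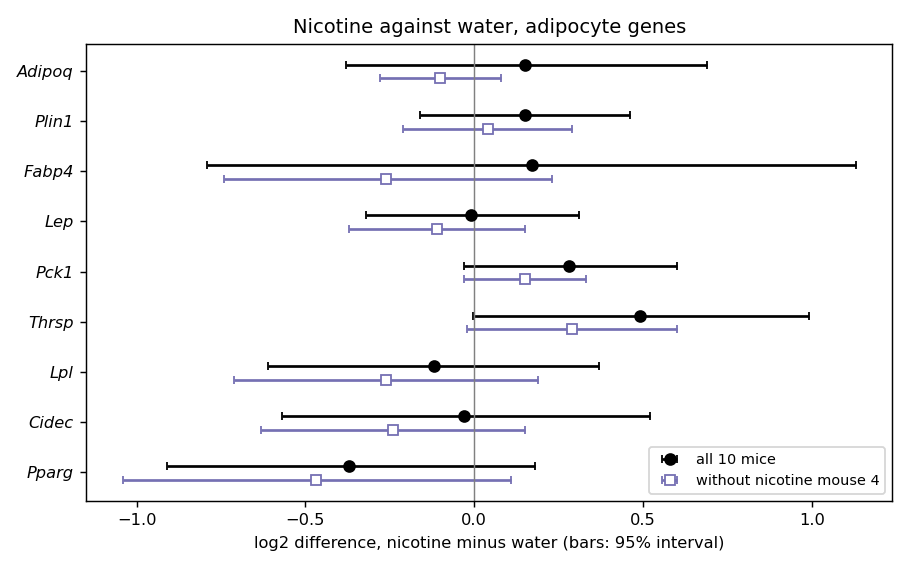
Log2 difference, nicotine minus water, of each measured adipocyte gene from the limma fit, with 95% intervals, in all 10 mice (black) and without nicotine mouse 4 (open squares). Each interval holds 0, and the points of Adipoq and Fabp4 lie on opposite sides of 0 in the 2 fits.

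Nicotine 4 stood apart in few genes, and many of these were genes of fat. Its value was more than 0.5 log2 units above all other mice in 17 of 19938 genes, or 0.0853%, and 5 of the 9 measured members were among them. Ordered by this gap, Fabp4 was 2nd of all genes, Adipoq 3rd, Thrsp 10th, Cidec 11th and Pck1 15th, followed by Plin1 at 26, Lpl at 91 and Lep at 176. Pparg stood at 6533. The 20 genes of largest gap held 5 members and 7 genes of 7 other lists on fat biology. Members and lists alike were drawn up with earlier results of these data known.

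**Figure D3:**
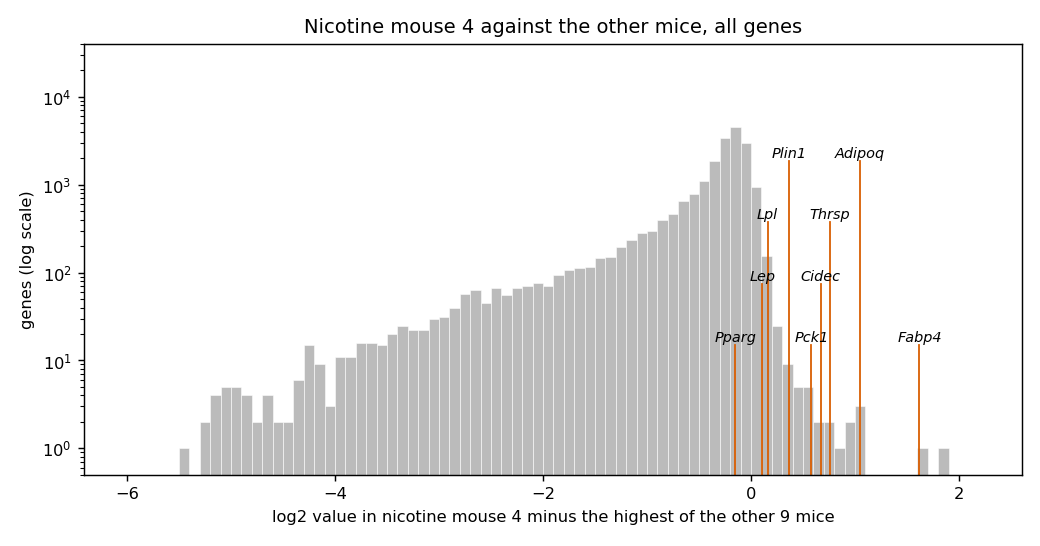
Number of genes (log scale) by the log2 value in nicotine mouse 4 minus the highest of the other 9 mice, for 19938 genes, with the 9 measured adipocyte genes marked; the height of a mark has no meaning. Most genes lie below 0, while Fabp4 lies at 1.62 and Adipoq at 1.05.

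The 7 genes of fat lists among these 20 were Ucp1, Cidea, Cox8b, Retn, Aqp7, Cd36 and Apoc1, and the 8 others were in no list. Ucp1, the uncoupling protein of brown and beige fat, had the largest gap of all: it measured 5.88, 6.11, 6.15, 6.02 and 5.98 log2 units in water mice 1 to 5 and 6.15, 6.07, 6.24, 8.09 and 6.11 in nicotine mice 1 to 5. Cidea, a droplet protein typical of brown fat, was 6.88 in nicotine 4 and 5.63 to 5.87 in the others. The means of Ucp1 and Cidea over the 10 mice were below the limit of 6.55 set on low values. Cox8b, a respiratory chain subunit of brown fat and striated muscle, was 9.36 in nicotine 4 and 8.36 in nicotine 1, against 6.72 to 7.06 in the other 8. Skeletal muscle markers averaged 9.85 in nicotine 1 but 7.41 in nicotine 4, within the 7.21 to 7.46 of the remaining mice. The part of muscle in the Cox8b values was not tested. Cox7a1, of the same kind, was 8.84 in nicotine 4 and at most 8.48 elsewhere.

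Other genes of the brown fat list did not follow. Of its 9 measured genes, 3 were highest in nicotine 4 (Ucp1, Cox8b and Cox7a1), beside 5.78% of all genes. The brown fat regulator Prdm16 was 7.22 in nicotine 4 and 7.17 to 7.58 in the others, and the coactivator gene Ppargc1a 9.23 against 8.56 to 10.04. Dio2, which activates thyroid hormone in brown fat, was 6.74 and among the lowest values. Elovl3, an elongase of brown fat and sebaceous glands, was 5.61, inside the range of 5.36 to 5.69.

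**Figure D4:**
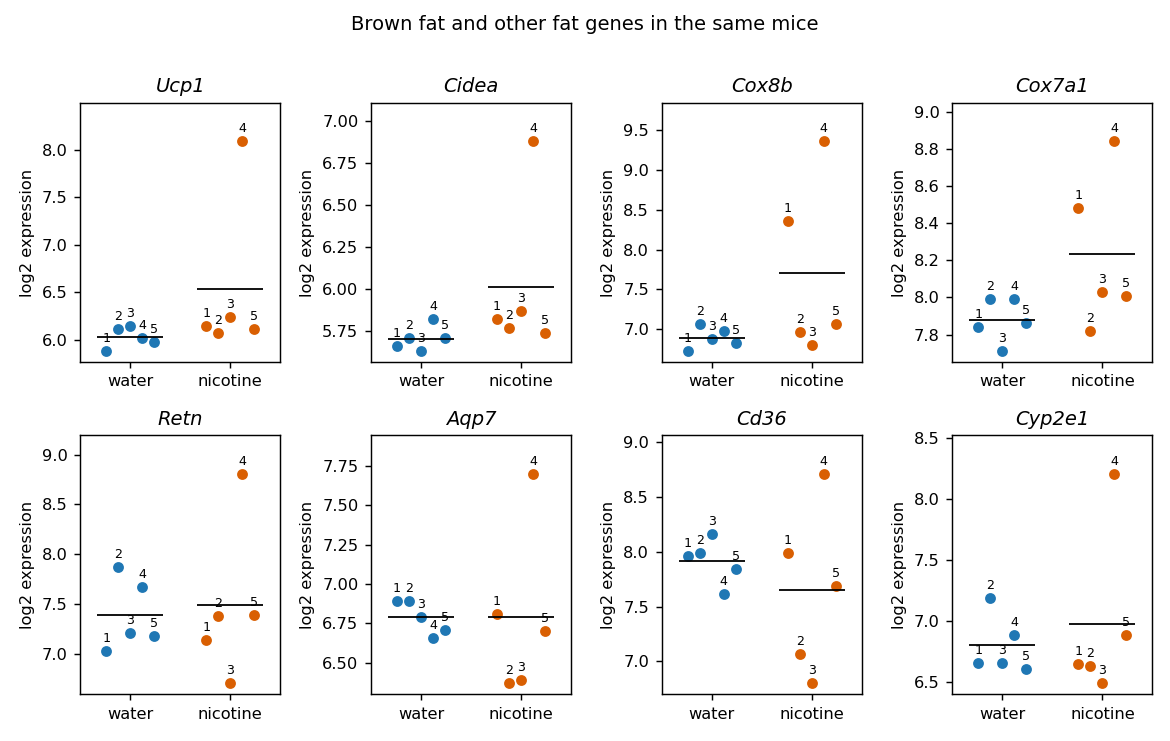
Log2 expression of 4 brown fat genes (Ucp1, Cidea, Cox8b, Cox7a1) and of Retn, Aqp7, Cd36 and Cyp2e1 in each mouse (points, labelled with the mouse number), with group means as lines; axes differ and do not start at 0. Nicotine 4 is the highest point in all 8 panels, and nicotine 1 is next for Cox8b and Cox7a1.

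The remaining fat lists held further genes that were highest in nicotine 4, beside others that were not. Retn, the adipokine resistin, was 8.81 in nicotine 4 and 6.70 to 7.87 in the others, a 3.01-fold level over their median. Aqp7, the glycerol channel of fat cells, was 7.70 against 6.37 to 6.89, and the fatty acid transporter gene Cd36 8.71 against 6.80 to 8.16. Gpd1, which makes glycerol phosphate, was 9.81 against at most 9.49. Of 15 measured lipid droplet and lipolysis genes, 4 were highest in nicotine 4, as were 4 of 17 triglyceride and fatty acid synthesis genes, 3 of 9 uptake genes and 1 of 10 adipokine and receptor genes. The same mouse was highest in 5.78% of all genes, and 1 of 10 is near that share. Of the lipase genes, Pnpla2 (10.17) was highest in nicotine 4, by 0.09, while Lipe (9.19) and Mgll (8.01) lay inside the range of the other mice. None of 12 adipogenic transcription factors was highest there, and Cebpa, the partner of Pparg, was 7.33, inside 6.98 to 7.62.

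Compared between nicotine and water, no gene of these lists passed an adjusted p of 0.05 by limma. For the lipid droplet list 9 of 14 tested genes were higher and the median log2 difference was 0.03, with the smallest p for Fitm2 (0.14 ± 0.08 SE), Fitm1 (0.17 ± 0.12) and Cidea (0.31 ± 0.20). For synthesis genes 7 of 16 were higher, with a median of -0.12, and Fasn (0.33 ± 0.11 SE), Gpam (-0.44 ± 0.21) and Acacb (0.15 ± 0.07) had the smallest p. For uptake genes 4 of 9 were higher, with a median of -0.04, and the named genes were Fabp5 (0.86 ± 0.40 SE), Gpihbp1 (0.21 ± 0.11) and Angptl4 (0.26 ± 0.16). Fabp5, the epithelial relative of Fabp4, was 10.98 in nicotine 3 and 9.82 in nicotine 1, against 8.44 to 8.90 in the other 8, while Fabp4 was lowest in nicotine 3 and, at 8.57, next below nicotine 4 in nicotine 1.

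Of the adipokine and receptor genes 5 of 9 tested were higher, with a median of 0.09; the smallest p were those of the insulin receptor gene Insr (-0.31 ± 0.10 SE), the retinol carrier gene Rbp4 (0.39 ± 0.14) and Apln (0.26 ± 0.11). In the adipogenic factor list 4 of 12 were higher, with a median of -0.04 and Klf5 (-0.53 ± 0.37 SE), Klf15 (-0.21 ± 0.17) and Mlxipl (0.11 ± 0.11) named. In the brown fat list 5 of 6 tested were higher, with a median of 0.27 and Cox7a1 (0.36 ± 0.18 SE), Zic1 (0.30 ± 0.16) and Cox8b (0.82 ± 0.46) named. Zic1 and Cidea were below the limit on low values, and their values come from the fit over all genes. The list named fat stroma and preadipocytes had the lowest median of these 7 lists, -0.57, with 7 of 9 lower. At an unadjusted p under 0.05, 5 of the 9 were lower, beside 5.84% of all tested genes. Macrophage markers lay the same way, with 12 of 12 lower, 6 of them at that p, and a median of -0.38. The medians of smooth muscle (-0.61), luminal (-1.34) and seminal vesicle genes (-2.26) were lower still, with 0 genes of each list at that p. Smooth muscle means were 10.69, 10.65 and 10.93 in nicotine 2, 4 and 5, and 10.53 to 10.79 in the water group. Luminal means were 11.53, 11.46 and 11.40 in nicotine 2, 4 and 5, and 11.46 to 11.68 with water. Seminal vesicle means ran from 7.25 to 13.16 within the water group and from 5.90 to 12.54 with nicotine. Of the stroma list, Dpt (-0.83 ± 0.16 SE), Cd34 (-0.57 ± 0.12) and Lum (-1.42 ± 0.42) were named, and each had a limma adjusted p of 0.458. Whether the values of the stroma list come from fat or from other tissue of the prostate was not tested.

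Without nicotine 1 and 3, 0 genes of the 7 lists passed an adjusted p of 0.05 by limma, as did 0% of all genes. The medians of the synthesis, uptake and adipogenic factor lists turned positive, at 0.03, 0.08 and 0.02, and those of the lipid droplet (0.05), adipokine (0.05) and brown fat (0.15) lists stayed above 0. The stroma list kept a negative median of -0.34, with 8 of 9 lower at an unadjusted p under 0.05, beside 8.71% of all genes; Dpt was -0.88 ± 0.16 (SE), Lum -0.84 ± 0.18 and Cd34 -0.42 ± 0.09, with limma adjusted p of 0.0826, 0.0949 and 0.109. Macrophage markers had a median of -0.33, with 11 of 12 lower and 7 of them at that p. Whether macrophages had a part in the stroma values was not tested. Fabp5 was 0.22 ± 0.10 (SE) in place of 0.86, Gpam -0.11 ± 0.06 in place of -0.44, Klf5 -0.10 ± 0.11 in place of -0.53, and Klf15 turned from -0.21 to 0.05. Cox8b was 0.90 ± 0.44 (SE), Cidea 0.43 ± 0.22 and Angptl4 0.35 ± 0.10. For Cox8b and Cidea the high values were those of nicotine 4, 9.36 and 6.88. Nicotine 2 and 5 were 6.96 and 7.06 for Cox8b and 5.77 and 5.74 for Cidea. The water means were 6.89 and 5.71. The other named genes kept their sign, with Fasn at 0.20 ± 0.09 (SE), Insr at -0.17 ± 0.06 and Rbp4 at 0.18 ± 0.08.

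In nicotine 4 the mean of the stroma genes was 8.52 log2 units, inside the 7.75 to 9.04 of the other 9 mice. All 5 nicotine mice (7.75 to 8.69) lay below the water mice (8.90 to 9.04) for this mean. Among single genes, 4.9% of all tested had groups that did not overlap. The stroma list was drawn up with earlier results of these data known. None of the 9 measured stroma genes was highest in nicotine 4. Endothelial markers, of cells that also make Fabp4 and Cd36, averaged 7.73 in nicotine 4, the lowest of the 10 mice, against 7.85 to 8.42 in the others, and 0 of 10 were highest there. Macrophage markers averaged 8.26, inside the 7.93 to 9.15 of the others, with 0 of 12 highest. Mesothelial markers, of the lining over abdominal fat, averaged 7.90 against 7.63 to 8.11, with 0 of 6 highest. Liver markers, of a tissue that makes Pck1 and Cyp2e1, averaged 7.30 against 6.84 to 7.35, with 0 of 4 measured highest. Of these, Alb and Fga were below the limit on low values, and Ttr was 10.10 against 8.08 to 10.20. Lymph node lymphocyte markers averaged 6.57 against 6.35 to 6.84 (0 of 7 highest), and nerve and glia markers 7.19 against 6.87 to 7.31 (0 of 3). Smooth muscle markers averaged 10.65 against 7.99 to 10.93 (0 of 10). Nicotine 4 was highest in 5.78% of all 19938 genes, so a count of 0 in lists this short says little. The part of these tissues in the high values of nicotine 4 was not tested.

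**Figure D5:**
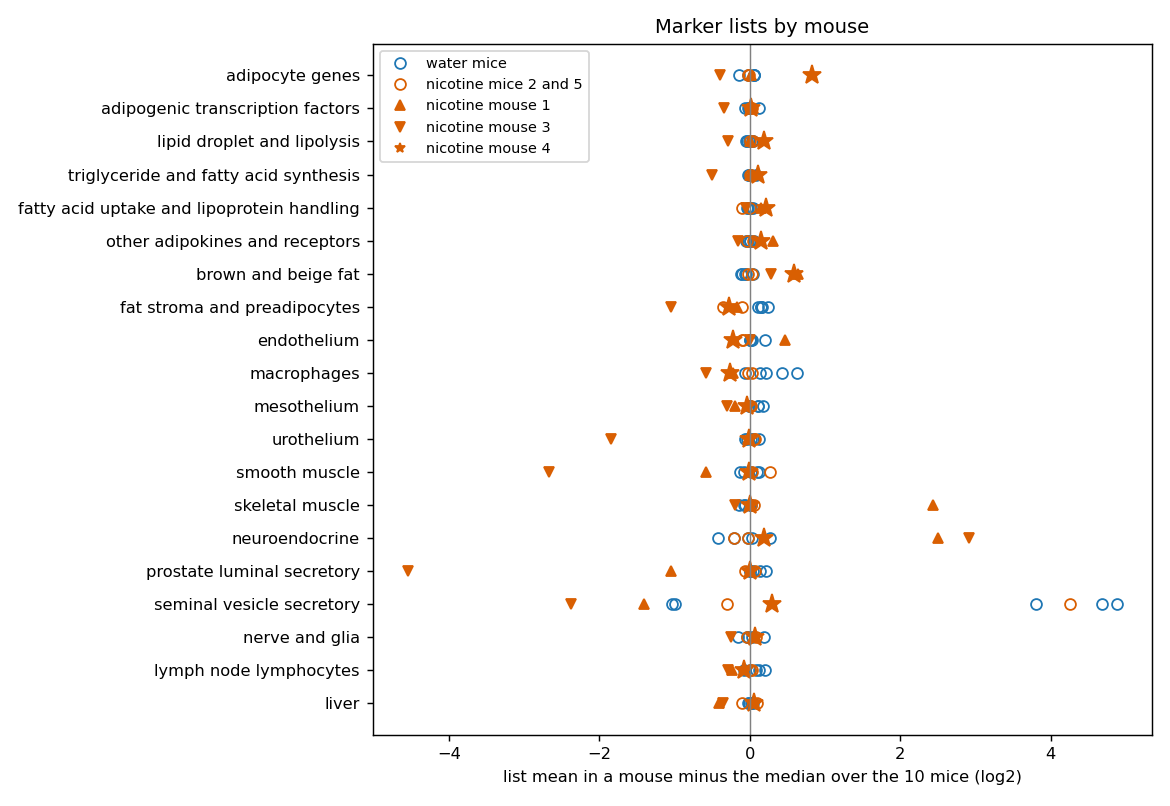
Mean log2 level of each marker list in each mouse minus the median over the 10 mice, with water in blue, nicotine in orange and nicotine mice 1, 3 and 4 as filled symbols. Nicotine 4 (star) lies to the right of all other mice for the adipocyte genes. Nicotine 3 and 1 stand apart in the luminal, neuroendocrine and smooth muscle lists, and nicotine 1 alone in the skeletal muscle list.

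The likeness of other genes to the members was measured as Pearson's r with the mean of the 9 genes over the 10 mice, as a description. The 8 genes most like it, with predicted names left out, were Ccdc130 (0.91), Retn (0.91), Cyp2e1 (0.90), Krt10 (0.90), Aqp7 (0.89), Ces1f (0.87), Ucp1 (0.86) and Dsg1b (0.86). These values rest on nicotine 4 and nicotine 3, the mice farthest from the median of the mean: over the other 8 mice r ran from -0.10 (Ces1f) to 0.65 (Ucp1). Cyp2e1, a cytochrome P450 of liver and fat, was 8.21 in nicotine 4, 2.93-fold above the median of the others, whose range was 6.49 to 7.19. Ccdc130, Krt10, Ces1f and Dsg1b had small spans, with nicotine 4 between 1.13-fold and 1.18-fold above the median of the others. Ucp1, Ces1f and Dsg1b had means below the limit on low values, so their r over the other 8 mice may reflect values near background.

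Among the members themselves, r with the mean of the other 8 members over the 10 mice was highest for Fabp4 (0.96) and Cidec (0.94) and lowest for Thrsp (0.56) and Pparg (0.38). Without nicotine 4 and nicotine 3 it was 0.83 for Cidec, 0.56 for Lep, 0.43 for Plin1, 0.40 for Adipoq, 0.33 for Thrsp, 0.23 for Fabp4 and 0.14 for Pck1. It was negative for Pparg (-0.27) and Lpl (-0.85). Lpl had its highest value of those 8 mice in water 1, where the mean of the 9 genes was lowest (7.30). In these 8 mice the mean of the 9 genes varied only from 7.30 to 7.50.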

How the data were processed

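Trizol RNA of 10 prostates was prepared with the Ambion WT Expression Kit, biotin labelled and read on Affymetrix whole-transcript arrays, per the labels' protocols. The authors deposited 1 table of log2 values for 35556 probe sets, from 3.59 to 14.12; the scale is read from that range. Details of probe summarisation and array normalization were not given in the sources used here. Array medians ran from 7.5 to 7.57. No scan dates or scanner files were used, so batches were not checked. Of the probe sets, 21789 had 1 symbol in the platform annotation, which can be old, 1621 had several and 12146 none; 21698 matched RefSeq by Entrez identifier and 0 symbols changed.

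The probe set with the highest mean was kept per gene (999 genes had several), the lowest 25% of genes by mean were left out, and nicotine was compared with water by limma 3.58.1 in R 4.3.3 (lmFit, eBayes, two-sided, Benjamini-Hochberg adjustment over all tested genes, threshold 0.05), after a test of the step on simulated data. Members below that limit were read from a fit over all 19938 genes. The simulated data had the same spread in both groups, so that test did not cover the wider spread of the nicotine group. Named genes were the members, the 3 genes of smallest p in each of 7 fat lists and the 8 most like the members' mean; other genes named for nicotine 4 were chosen after their values were seen. The members and lists were chosen with earlier results of these data known. The labels number the mice 1 to 5 in each group; p-values measure the spread between mice. Alternatives changed the filter, the choice of probe set, the normalization, the variance model, array weights, a block or covariate, and which mice were left out.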

Additional observations from a re-analysis of the deposited data

Results flagged for a closer look

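A sample was singled out where its gap to the nearest of its group, divided by the range of the group, was above 0.71, the 95% limit for 5 values. Over 116 groups of values there were 18 such samples. Chance gives about 1 in 20 groups for values not chosen by their pattern; the groups here include genes chosen for likeness to the members' mean (Ccdc130, Cyp2e1 and Ucp1) or for a small p, for which that rate does not hold. Nicotine 4 was high for Adipoq (7.82), Cidea (6.88), Ucp1 (8.09), Cyp2e1 (8.21) and Ccdc130 (9.21). Fabp4 in nicotine 4 did not meet the limit; in the same group nicotine 3 lay low. Nicotine 3 was low for Klf5 (9.11) and for the list means of adipogenic transcription factors (7.95), triglyceride and fatty acid synthesis (8.74), fat stroma (7.75), urothelium (6.96) and prostate luminal genes (6.92), and high for Zic1 (6.66). Nicotine 1 was high for the skeletal muscle list (9.85) and for Fitm1 (7.20), a droplet gene of striated muscle. Among water mice, water 1 was low for Cidec (7.59) and high for the endothelial list (8.16), water 2 was high for Zic1 (5.76) and water 4 for Fabp5 (8.90).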

How the results depend on the processing

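No member passed an adjusted p of 0.05 in any of the 22 alternatives run. Over all genes, 0 passed in 20 of them, 1096 passed with array weights and 20 passed without nicotine mice 1, 3 and 4, a setting added after the data were seen. The members' mean differed by -0.11 (without nicotine 4) to 0.20 (without nicotine 3) when each mouse was left out in turn, and by 0.27 without nicotine 1 and 3. With nicotine 4 left out as well it was -0.02. With the mouse number as a replicate block it was 0.08, as without, and 0 genes passed; deviations of same-numbered mice correlated at -0.13 to 0.16, so the data do not show that the numbers pair the mice. Plin1, Pck1 and Thrsp were positive in all settings in which they had a value, but Thrsp ranged down from 0.49 to 0.22 with array weights and 0.06 without nicotine 1, 3 and 4. The other 6 members turned sign. Lep was 0.03 after quantile normalization and after median centring, 0.01 with the seminal vesicle covariate and 0.07 without nicotine 1 and 3. Cidec was 0.00, 0.01, 0.08 and 0.19 in the same order, and 0.02 with array weights. Lpl was 0.09 with array weights and 0.12 without nicotine 1 and 3, and Pparg 0.01 and 0.02. Without nicotine 1, 3 and 4, Adipoq was -0.08, Fabp4 -0.19 and Pparg 0.01. Leaving out each mouse gave -0.10 to 0.25 for Adipoq, -0.26 to 0.44 for Fabp4, -0.11 to 0.07 for Lep, -0.24 to 0.16 for Cidec, -0.26 to 0.08 for Lpl and -0.48 to -0.14 for Pparg. The cause of these changes was not tested. No detection values were used, so a low level such as that of Lep, or of Thrsp in the water group, may lie near background.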

Other observations

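Nicotine 4 also stood above all other mice in a few genes outside the fat lists. The secretoglobin gene Scgb1b27 was 11.94 log2 units there against a median of 10.70 in the other 9 mice, and the complement inhibitor gene Cd59a 9.90 against 8.74. The histone gene H2bc8 was 9.15 against 8.39, Lhfpl1 8.12 against 7.41 and Tac1, the precursor of substance P, 7.77 against 6.90. These genes were chosen after their values were seen, as those of largest gap to the next mouse.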
